A study of Homo sapiens with 9 samples.

Results

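Transcripts of 10 genes that set the passage of a cell from G1 into S phase were examined in the human breast cancer line MDA-MB-231, grown at 2 viscosities of the culture medium and with or without a hairpin against *TRPV4*. The genes were chosen by name: *MYC*, the D-type cyclins *CCND1* and *CCND3*, the E-type cyclins *CCNE1* and *CCNE2*, the kinases *CDK4* and *CDK6*, the CDK inhibitors *CDKN1A* and *CDKN2C*, and the retinoblastoma gene *RB1*. They are 10 of the 60664 genes listed for each sample, and all 10 were among the 18264 genes with enough reads to test. Both these genes and the lists read beside them below were chosen with earlier results of these data known. The 9 samples formed 3 groups of 3, all taken on day 6. Cells with a scramble hairpin (SC, the controls below) were kept at 0.77 cP or at 8 cP, and cells with the hairpin shTRPV4 (the knockdown cells) were kept at 8 cP. Every group carried a hairpin expressed stably from the same lentiviral backbone under puromycin selection, scramble in one line and against *TRPV4* in the other. Loss of TRPV4, other effects of that hairpin and a difference between the 2 lines therefore cannot be told apart here. Viscosity was raised with methylcellulose, and cells were fed on alternate days and passed to fresh flasks near confluency. The sources used here do not say whether the 3 samples of a group were separate cultures, so p-values measure only the spread between these samples, which may be technical. Knockdown cells at 0.77 cP were not analysed here, so the effect of viscosity in knockdown cells was not compared with that in control cells.

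In G1, D-type cyclins pair with CDK4 and CDK6 and phosphorylate the RB1 protein, which otherwise holds the E2F factors in check. E2F then drives the genes of DNA replication and the E-type cyclins, which pair with CDK2 and complete the phosphorylation of RB1. CDKN1A (p21) and its relatives inhibit cyclin-bound CDK2, CDKN2C (p18) belongs to the family that binds CDK4 and CDK6 directly, and MYC, a transcription factor made early after a growth stimulus, binds DNA with its partner MAX and promotes growth and entry into the cycle. In breast cancer, the kinases that cyclin D1 activates are targets of therapy.

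The libraries were deep, with between 64571681 and 103518036 counts per sample, and each of the 10 genes had at least 829 counts in every sample. The targeted gene, *TRPV4*, had 28 to 54 counts in controls at 0.77 cP, 24 to 64 in controls at 8 cP and 1 to 13 in knockdown cells, which differed from the controls at 8 cP by -2.51 on the log2 scale (SE 0.49, edgeR adjusted p = 0.00219). The markers chosen for the line were present in all samples (*VIM*, *CD44*, *AXL*, *CAV1*, *S100A4* and *MSN*, 4948 to 5370 CPM in sum, CPM being a gene's counts relative to the TMM-scaled total of the library). Of these 6, 1 rose and 2 fell with viscosity at an edgeR adjusted p below 0.05 (19.3% of all genes passed). With the knockdown 1 was higher and 2 were lower (20.0% of all genes passed). The sum does not show these opposite changes. The defining receptors that the line lacks, *ESR1* and *PGR*, lay below 0.04 CPM, and *CDH1* reached at most 0.133 CPM. The other 3 of the 6 genes listed as low in this line were expressed, *KRT8* at 981 to 1494 CPM, *EPCAM* at 16.9 to 19.4 CPM and *GATA3* at 11.9 to 16.4 CPM. Of these, *KRT8* fell with viscosity (log2 fold change -0.31) and *GATA3* was higher with the knockdown (0.30). The 6 markers of blood, endothelial and stromal cells were low, and their sum differed between the groups. They summed to 10.3 to 12.5 CPM in controls at 0.77 cP, 7.68 to 8.2 CPM in controls at 8 cP and 6.71 to 6.80 CPM in knockdown cells, mostly *COL1A1* and *PECAM1*, and these ranges did not overlap. Of the 3 with enough reads to test, *PECAM1* (-0.86) and *COL1A1* (-0.35) fell with viscosity and none passed with the knockdown in edgeR or DESeq2, where 1 had an unadjusted p below 0.05. *CDH5* was at 0 in every sample of controls at 0.77 cP and of knockdown cells, and *CD3E* in controls at 8 cP. Their part in the results below was not tested. In bulk RNA, fewer cells that express a gene and less RNA per cell cannot be told apart.

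Promoter sequences are given for 4 of the genes because they place the measurements below beside the letters in the DNA. They span 250 bases before to 50 bases after an annotated transcription start in RefSeq (GRCh38.p14), which held such windows for 7 of the 10 genes (*CCND3*, *CCNE1*, *CDK4*, *CDK6*, *CDKN1A*, *CDKN2C* and *RB1*). In the first pair the capitals mark CACGTG, the E-box that MYC and its antagonists bind with MAX. *CDK4* (chr12:57752261-57752560, minus strand) is shown because it holds 3 copies of the E-box and is a gene commonly listed as a MYC target, and *CDKN2C* (chr1:50969995-50970294, plus strand) because it holds 1 copy and is the inhibitor with the larger change under the knockdown.

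CDK4: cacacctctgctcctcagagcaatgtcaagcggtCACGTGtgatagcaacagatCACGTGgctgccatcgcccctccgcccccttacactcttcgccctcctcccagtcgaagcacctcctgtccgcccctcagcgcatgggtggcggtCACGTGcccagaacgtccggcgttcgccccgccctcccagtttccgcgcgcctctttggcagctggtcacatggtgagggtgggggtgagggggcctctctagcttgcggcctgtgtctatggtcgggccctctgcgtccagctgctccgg

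CDKN2C: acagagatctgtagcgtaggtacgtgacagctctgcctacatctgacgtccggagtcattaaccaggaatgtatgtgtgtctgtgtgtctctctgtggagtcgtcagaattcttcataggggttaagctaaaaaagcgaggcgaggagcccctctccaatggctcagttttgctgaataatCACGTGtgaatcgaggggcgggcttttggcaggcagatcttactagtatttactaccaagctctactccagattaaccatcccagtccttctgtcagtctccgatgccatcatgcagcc

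In the second pair the capitals mark GGGCGG on either strand (CCGCCC in the printed one), the GC box bound by SP factors. *CCNE1* (chr19:29811741-29812040, plus strand) and *CDKN1A* (chr6:36678464-36678763, plus strand) are shown because they moved in opposite directions in both steps of the experiment. *CCNE1* holds 7 copies and *CDKN1A* 4, of which the last 2 share a base.

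CCNE1: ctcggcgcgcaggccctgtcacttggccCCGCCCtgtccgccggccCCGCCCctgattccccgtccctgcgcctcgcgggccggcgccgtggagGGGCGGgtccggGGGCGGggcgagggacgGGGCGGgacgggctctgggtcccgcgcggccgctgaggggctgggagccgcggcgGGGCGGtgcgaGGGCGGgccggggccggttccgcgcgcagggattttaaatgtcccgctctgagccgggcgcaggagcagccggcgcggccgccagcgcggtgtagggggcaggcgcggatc

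CDKN1A: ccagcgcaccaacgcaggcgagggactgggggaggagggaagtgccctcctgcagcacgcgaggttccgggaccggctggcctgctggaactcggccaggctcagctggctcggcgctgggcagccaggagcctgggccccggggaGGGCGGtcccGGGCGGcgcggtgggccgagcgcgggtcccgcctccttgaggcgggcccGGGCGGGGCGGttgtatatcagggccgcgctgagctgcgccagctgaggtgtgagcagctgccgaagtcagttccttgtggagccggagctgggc

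Of the 7 genes, 3 held CACGTG in at least 1 of their windows (*CDK4*, *CDK6* and *CDKN2C*), compared with 7.26% of all 35116 windows in the table, and 6 held a GC box, compared with 45.0%. A gene with several starts had several windows, which the percentage of single windows does not allow for, and the printed windows of *CDK4*, *CDKN1A* and *CDKN2C* lie inside the annotated span of the gene rather than at its outermost start, as does the window listed for *RB1*. *CDKN2C* had 3 windows. The one shown has its E-box nearest to the start, another also holds 1 E-box, and the remaining one holds 6 GC boxes and no E-box. None of the 7 held the letters used for an E2F site on either strand (TTT, then 2 bases that are each C or G, then CGC), which were in 3.31% of all windows and in 12 of 17 matched genes of a list of G1/S transcripts. These are descriptions of letters in a window and do not show that a factor binds there.

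At 8 cP, the controls held less *MYC* and *CDKN1A* RNA and more *CCNE1* and *RB1* RNA than at 0.77 cP. These 4 of the 10 genes passed the test (edgeR's quasi-likelihood test over all genes, adjusted p below 0.05), against a background of 19.3% of all genes tested, with 2 higher (9.57% of all genes) and 2 lower (9.69%). The samples of the 2 groups did not overlap for 7 of the 10, against 38.4% of all genes. In knockdown cells against controls at 8 cP, *CDKN1A* was lower and *CCNE1* and *RB1* were higher again, *CDKN2C* and *CDK6* were lower, and *MYC* did not pass. These were 5 of the 10 genes, against 20.0% of all genes, with 2 higher (9.02% of all genes) and 3 lower (11.0%), and 7 did not overlap between groups, against 36.3%. The controls at 8 cP enter both comparisons, so the direction a gene takes in one is not independent of the other. When a change had to exceed 1.2-fold, *MYC* and *CDKN1A* passed for viscosity (1.4% of all genes) and *CDKN2C*, *CDKN1A* and *RB1* for the knockdown (3.55% of all genes).

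**Figure D1:**
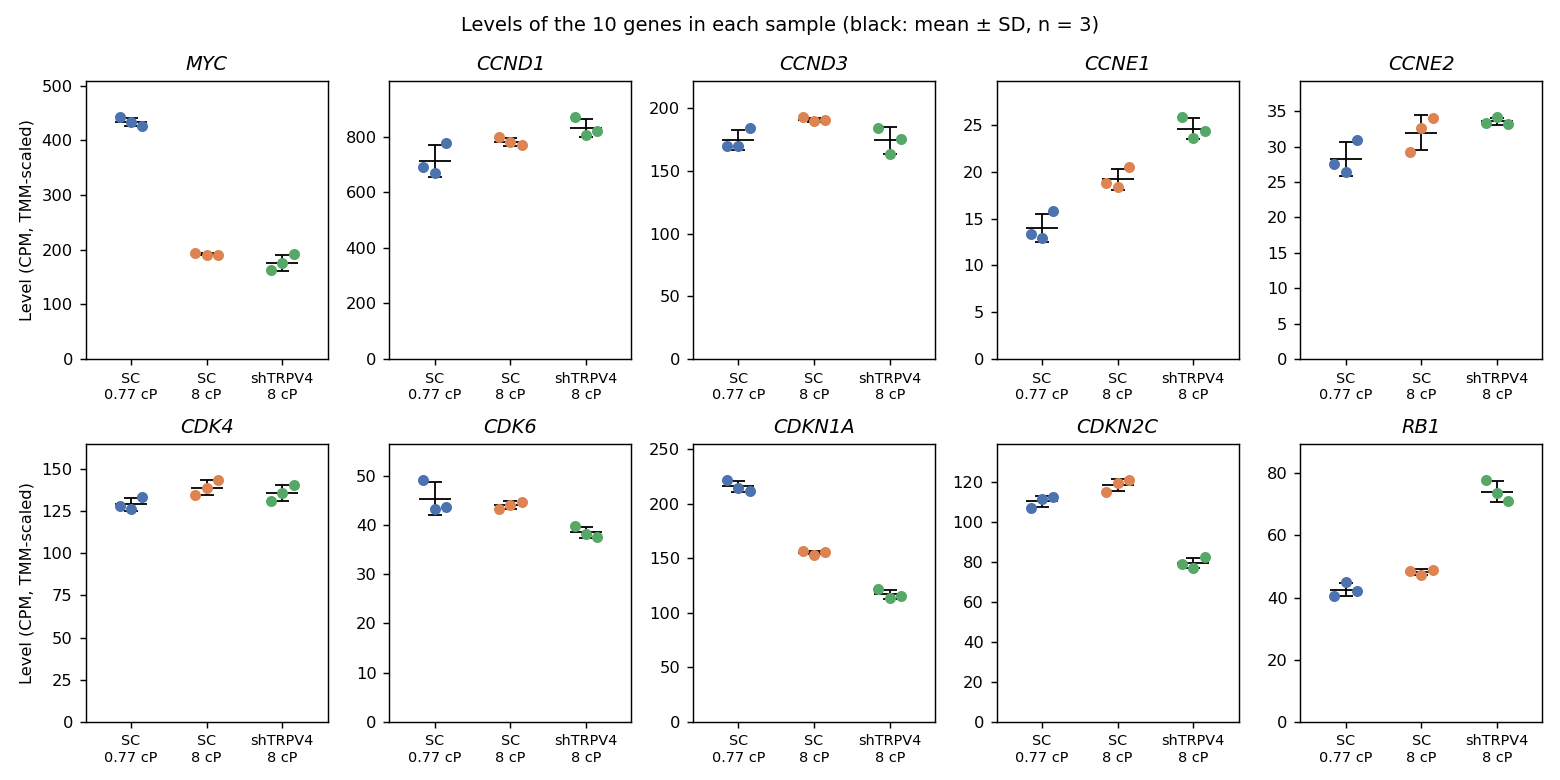
Level of each of the 10 genes in each of the 9 samples, in TMM-scaled CPM on axes that start at 0. Coloured points are samples and black marks are the mean and SD of 3 samples. *MYC* was at 426 to 442 CPM in controls at 0.77 cP and at 162 to 195 CPM in the samples at 8 cP, whereas *CDKN2C* and *RB1* were set apart in knockdown cells.

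*MYC* (ENSG00000136997, on chromosome 8) showed the largest difference of the 10 genes with viscosity. Its level was 442, 433 and 426 CPM in the 3 samples of controls at 0.77 cP, 195, 191 and 190 CPM in controls at 8 cP and 162, 175 and 192 CPM in knockdown cells at 8 cP. Every sample at 8 cP was below every sample at 0.77 cP, and the 2 groups at 8 cP overlapped. At 8 cP the controls held 0.442 times the *MYC* RNA of controls at 0.77 cP, a log2 fold change of -1.18 (SE 0.05, edgeR adjusted p = 6.4e-10). Between the 2 groups at 8 cP it was -0.12 (SE 0.05, edgeR adjusted p = 0.125), and without the third knockdown sample it was -0.19 with an adjusted p of 0.0158 in edgeR. *MYC* is itself an early response gene, and of a list of 18 other such genes 15 fell and 1 rose in controls at 8 cP (median log2 fold change -1.55). Of all genes, 9.69% fell and 9.57% rose. The low values of the list were known when it was written.

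The wider network of factors around MYC and MAX was read from a list of 12 genes. *MYCN* had 0 counts in all 9 samples, where 3 counts would be 0.0290 to 0.0465 CPM, and the other 11 genes were tested. None rose and 3 fell in controls at 8 cP (9.69% of all genes fell), all of them MAX-binding antagonists of MYC: *MXD1* (log2 fold change -0.48), *MXD4* (-0.33) and *MXI1* (-0.49). Between knockdown cells and controls at 8 cP, 4 of the 11 were lower (11.0% of all genes) and none higher, namely *MXD1* (-0.50), *MXD3* (-0.37), *MXD4* (-0.23) and *MXI1* (-0.32), the last one named after its value was seen. Exons of *MXD3* overlap those of *RAB24* and *PRELID1*, so its counts are less certain. *MXD1*, for example, went from 13.8 ± 0.27 CPM (SD, n = 3) in controls at 0.77 cP to 9.89 ± 0.64 CPM in controls at 8 cP and 7.0 ± 0.27 CPM in knockdown cells. The antagonists that passed were lower in the group in which *MYC* was lower, and *MXD1*, *MXD4* and *MXI1* were lower again with the knockdown, where *MYC* did not pass. The count of 3 became 5 without the third control sample at 0.77 cP, and the count of 4 became 2 without the second control sample at 8 cP. Over all genes, 1985 fell in the first of these fits instead of 1770. In the second 1286 were lower instead of 2002.

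Genes commonly given as MYC targets were read beside *MYC* from a list of 20. In controls at 8 cP, 10 of the 20 rose and none fell, where 9.57% of all genes rose (median log2 fold change 0.17, against -0.01 over all genes). Among the 10 were *SRM* (0.40), a polyamine synthesis enzyme, *DKC1* (0.34), of the ribonucleoproteins that modify ribosomal RNA, and *POLR1B* (0.32), a subunit of RNA polymerase I. The count fell to 3 without the first control sample at 0.77 cP, 4 without the second and 3 without the third control sample at 8 cP. Over all genes 671, 963 and 687 rose in these fits, instead of 1748. In knockdown cells 8 of the 20 were higher and 1 lower than in controls at 8 cP (median 0.16, against 0.00 over all genes). Of all genes, 9.02% were higher and 11.0% lower. *POLR1B* (0.42) and *NOP56* (0.24), of the nucleolus, were higher, and the lower gene was *LDHA* (-0.38), which makes lactate. That count of 8 fell to 2 without the first control sample at 8 cP, to 3 without the second and to 4 without the first knockdown sample. The genes higher over all genes were then 996, 893 and 1259, instead of 1647. *CDK4* is on this list as well.

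*CCND1* (chr11:69641156-69654474 in GRCh38), which encodes cyclin D1, was the most abundant of the 10 transcripts in every group, both in CPM and per length. Its level was 690, 670 and 777 CPM in controls at 0.77 cP, 797, 779 and 769 CPM in controls at 8 cP and 869, 807 and 819 CPM in knockdown cells. The third control sample at 0.77 cP lay among the control samples at 8 cP, and the knockdown samples were all above both control groups. Neither step passed (log2 fold change 0.13, SE 0.05, edgeR adjusted p = 0.0963 for viscosity, and 0.09, SE 0.05, adjusted p = 0.28 for the knockdown). Without that sample the viscosity difference was 0.21 and passed, with an edgeR adjusted p of 0.00556.

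*CCND3* (chr6:41934934-42050357), the other D-type cyclin examined, was at 170, 170 and 184 CPM in controls at 0.77 cP, 193, 189 and 190 CPM in controls at 8 cP and 184, 163 and 175 CPM in knockdown cells. The controls at 8 cP were above every sample of the other groups, but neither difference passed (0.13, SE 0.05, edgeR adjusted p = 0.0875, and -0.13, SE 0.05, adjusted p = 0.0817). Leaving out the first knockdown sample brought both below the threshold, and the viscosity difference also passed without the third control sample at 0.77 cP. To compare levels between genes, CPM was divided by the kilobases of merged exons (RPKM). On that scale *CCND1* made up 83.0% ± 0.5 (SD, n = 3) of the 3 D-type cyclins in controls at 0.77 cP, 83.1% ± 0.17 in controls at 8 cP and 85.2% ± 0.39 in knockdown cells, and *CCND2* about 0.1% or less. *CCND2*, at 1.29 CPM in controls at 8 cP and 0.811 CPM in knockdown cells, was lower with the hairpin (log2 fold change -0.66, edgeR adjusted p = 0.0477), although the samples overlapped and the call was lost in 6 of the 9 fits that each left out a sample. Of the merged exon bases of *CCND2*, 999 of 7988 overlap another gene on the same strand, so its counts are less certain.

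Of the partner kinases, *CDK4* passed in neither step and *CDK6* with the knockdown. *CDK4* (chr12:57747727-57756013) was at 128, 126 and 133 CPM in controls at 0.77 cP, 134, 139 and 144 CPM in controls at 8 cP and 131, 136 and 141 CPM in knockdown cells. The control samples at 8 cP were just above those at 0.77 cP, and those of knockdown cells overlapped both. Its log2 fold change was 0.10 (SE 0.04, edgeR adjusted p = 0.114) for viscosity and -0.03 (SE 0.04, adjusted p = 0.66) for the knockdown. Of the merged exon bases of *CDK4*, 1369 of 3094 overlap *TSPAN31* on the opposite strand. The libraries were stranded, but the strand setting used in counting is not given in the sources used here.

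*CDK6* (chr7:92604921-92836573) was at 49.1, 43.1 and 43.7 CPM in controls at 0.77 cP, 43.2, 44.1 and 44.7 CPM in controls at 8 cP and 39.7, 38.1 and 37.6 CPM in knockdown cells. The control groups overlapped, with the first sample at 0.77 cP the highest, and all knockdown samples were below all control samples. The knockdown difference of -0.19 (SE 0.05, edgeR adjusted p = 0.0194) passed but was lost in 4 of the 9 fits that each left out a sample, namely the second or the third of either group at 8 cP. The viscosity difference of -0.04 (SE 0.05, edgeR adjusted p = 0.616) became 0.02 without the first control sample at 0.77 cP. Per length, *CDK4* made up 91.9% ± 0.63, 92.6% ± 0.11 and 93.3% ± 0.4 of the pair in the 3 groups (SD, n = 3).

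**Figure D2:**
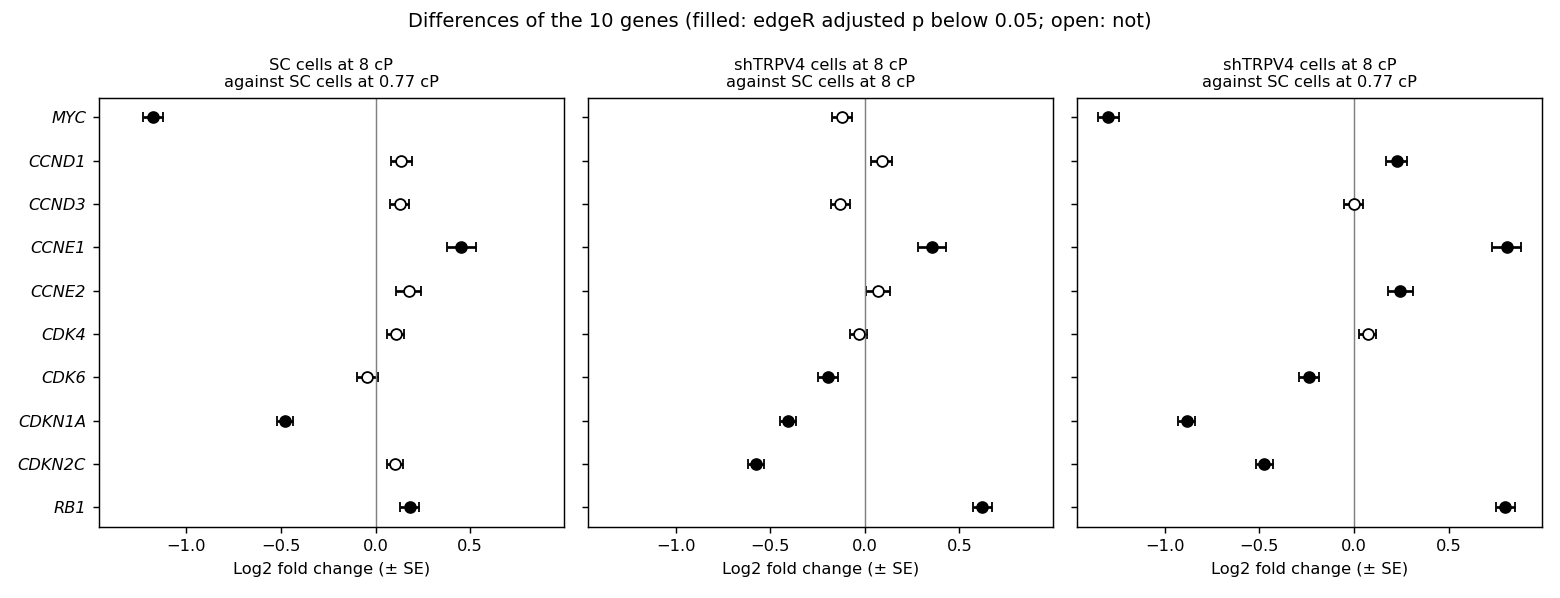
Log2 fold change of each gene with its SE in the 3 comparisons, from edgeR over all 9 samples. Filled points passed at an adjusted p below 0.05: 4 genes for viscosity, 5 for the knockdown and 8 when both differed. Of all genes tested, 19.3%, 20.0% and 42.4% passed in these comparisons.

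Of the E-type cyclins, *CCNE1* passed in both steps and *CCNE2* in neither. *CCNE1* (chr19:29811991-29824312) was at 13.3, 12.9 and 15.8 CPM in controls at 0.77 cP, 18.8, 18.4 and 20.5 CPM in controls at 8 cP and 25.8, 23.6 and 24.3 CPM in knockdown cells, so that the 3 groups followed each other without overlap. It rose 1.37-fold with viscosity (log2 fold change 0.45, SE 0.08, edgeR adjusted p = 0.00151) and was 1.28-fold higher in knockdown cells than in controls at 8 cP (0.36, SE 0.07, adjusted p = 0.00346). Both calls were kept in all 9 fits that each left out a sample, and neither difference passed in glmTreat against 1.2-fold (adjusted p = 0.123 and 0.412).

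*CCNE2* (on chromosome 8) was at 27.6, 26.4 and 31.0 CPM in controls at 0.77 cP, 29.3, 32.6 and 34.1 CPM in controls at 8 cP and 33.4, 34.1 and 33.2 CPM in knockdown cells. Neighbouring groups overlapped, and neither step passed (0.17, SE 0.07, edgeR adjusted p = 0.0777, and 0.07, SE 0.07, adjusted p = 0.513), although DESeq2 called the first. *CCNE2* shares 1633 of 4397 merged exon bases with genes on the opposite strand, *INTS8* among them, and *CCNE1* shares none. Per length, *CCNE1* was 46.9% ± 0.64 of the pair in controls at 0.77 cP, 51.8% ± 1.6 in controls at 8 cP and 56.7% ± 1.4 in knockdown cells (SD, n = 3), without overlap between samples. The sum of the pair was 12.1, 15.1 and 17.6 RPKM.

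Of the inhibitors, *CDKN1A* was lower in both steps and *CDKN2C* with the knockdown. *CDKN1A* (chr6:36676460-36687337) was at 222, 215 and 212 CPM in controls at 0.77 cP, 157, 153 and 156 CPM in controls at 8 cP and 122, 114 and 115 CPM in knockdown cells. The 3 groups stood apart without overlap. It fell to 0.718 times with viscosity (log2 fold change -0.48, SE 0.04, edgeR adjusted p = 2.36e-06) and was 0.754 times as high in knockdown cells as in controls at 8 cP (-0.41, SE 0.04, adjusted p = 8.95e-06). Both calls were kept under all 16 alternatives tried.

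*CDKN1A* is the best known target of p53, a factor that is mutated in this line, so a list of 20 other p53 targets was read beside it. In controls at 8 cP 4 of the 20 fell and 1 rose (median log2 fold change -0.03, against -0.01 over all genes), a share near the 19.3% of all genes called, with *GDF15* (-0.97), a stress-induced cytokine, and *TNFRSF10B* (-0.20), a death receptor, lower and *ZMAT3* (0.37), an RNA-binding protein, higher. The 4 that fell became 2 without the first control sample at 0.77 cP and 1 without the third control sample at 8 cP. Over all genes 738 and 731 fell in these fits, instead of 1770. In knockdown cells 7 of the 20 were lower and none higher than in controls at 8 cP (median -0.13, against 0.00 over all genes, of which 11.0% were lower), among them *CCNG1* (-0.35), an atypical cyclin, *SESN2* (-0.39), a stress-response regulator, and *MDM2* (-0.32), which targets p53 for degradation. That count of 7 fell to 3 without the first control sample at 8 cP and to 4 without the second. The genes lower over all genes were then 1365 and 1286, instead of 2002.

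*CDKN2C* (chr1:50960745-50974634) was at 107, 112 and 112 CPM in controls at 0.77 cP, 115, 120 and 121 CPM in controls at 8 cP and 79.1, 77.3 and 82.5 CPM in knockdown cells. All knockdown samples were below all control samples, and the control samples at 8 cP were slightly above those at 0.77 cP. The knockdown difference was -0.58 on the log2 scale (SE 0.04, edgeR adjusted p = 4.63e-07), and the viscosity difference of 0.10 (SE 0.04, adjusted p = 0.112) did not pass. *CDKN2C* was the gene of the 10 whose knockdown difference had the smallest adjusted p. Its printed promoter holds CACGTG once, and that of *CDK4*, which passed in neither step, holds it 3 times.

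Of the other inhibitors, *CDKN2A* (p16) and *CDKN2B* (p15) had 0 counts in all 9 samples, where 3 counts would be 0.0290 to 0.0465 CPM. *CDKN2D* (p19), which like CDKN2C binds CDK4 and CDK6, was lower in knockdown cells than in controls at 8 cP (34.6 ± 1.6 against 48.5 ± 2.0 CPM, SD, n = 3, log2 fold change -0.49, edgeR adjusted p = 9.56e-06). *CDKN1B* (p27) was also lower (64.0 ± 1.6 against 78.6 ± 4.2 CPM, -0.30, adjusted p = 0.00278 in edgeR). *CDKN1C* (p57) fell in controls at 8 cP (10.7 ± 0.72 against 15.0 ± 2.1 CPM, -0.48, adjusted p = 0.00458 in edgeR) and was at 9.37 ± 0.86 CPM in knockdown cells. Per length, the 5 detected inhibitors summed to between 156 and 159 RPKM in controls at 0.77 cP, 134 and 138 RPKM in controls at 8 cP and 96.8 and 101 RPKM in knockdown cells. *CDKN1A* took 45.9% ± 0.69 of that sum at 0.77 cP and 38.1% ± 0.78 at 8 cP in controls, and 39.4% ± 1.5 in knockdown cells, and *CDKN2C* took 23.3% ± 0.8, 28.9% ± 0.33 and 26.6% ± 0.33.

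**Figure D3:**
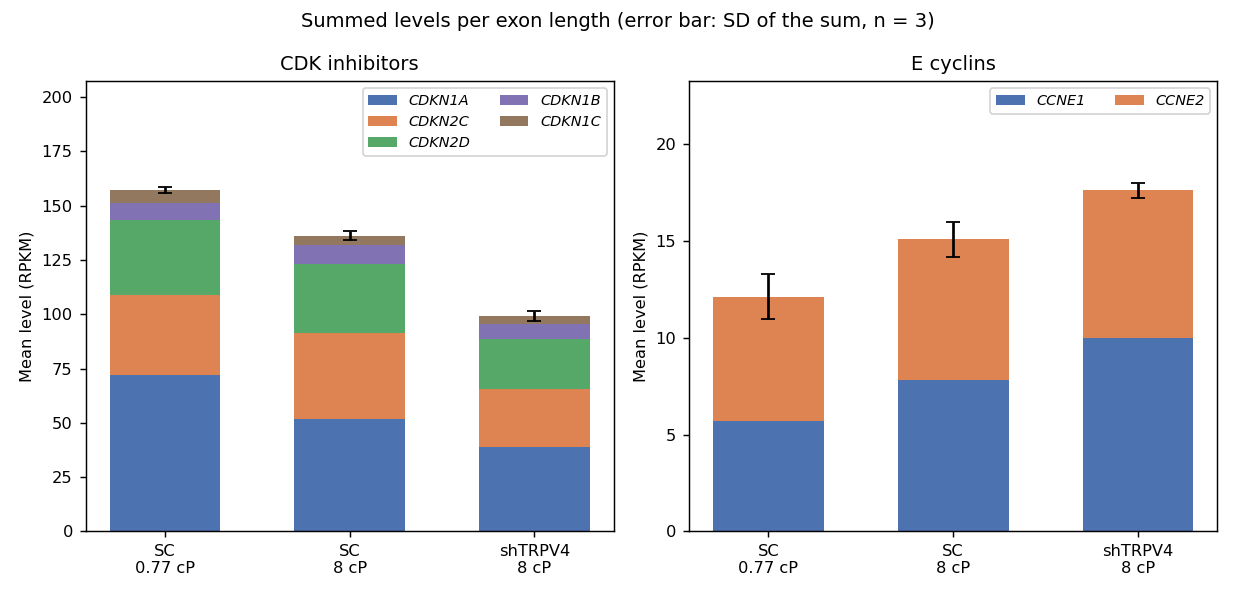
Mean level per exon length, in RPKM from 0, of the 5 detected CDK inhibitors (left) and the E-type cyclins (right), stacked by gene for the 3 groups, with the SD of the sum over 3 samples. The summed inhibitors stood at 157, 136 and 99.1 RPKM, and the summed E-type cyclins at 12.1, 15.1 and 17.6 RPKM.

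*RB1* (chr13:48303744-48599436), the substrate of these kinases, was at 40.6, 45.0 and 42.2 CPM in controls at 0.77 cP, 48.7, 47.1 and 48.8 CPM in controls at 8 cP and 77.9, 73.5 and 71.0 CPM in knockdown cells. The samples of the 3 groups did not overlap, and most of the difference lay between control and knockdown cells. It was 1.54-fold higher in knockdown cells than in controls at 8 cP (log2 fold change 0.62, SE 0.05, edgeR adjusted p = 8.93e-07). The rise with viscosity was 1.13-fold (0.18, SE 0.05, adjusted p = 0.0236 in edgeR) and was lost without the first control sample at 0.77 cP and without the first or the third control sample at 8 cP. *RB1* shares no exon bases with another gene.

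When both viscosity and hairpin differed, that is in knockdown cells at 8 cP against controls at 0.77 cP, 8 of the 10 genes passed, against 42.4% of all genes, with 4 higher (20.4% of all genes) and 4 lower (22.0%). Samples did not overlap for 8 of the 10, against 50.6% of all genes, and 5 passed when a change had to exceed 1.2-fold, against 13.8%. In this comparison the share of the 2 factors cannot be told apart. *CCNE1* was 1.75-fold and *RB1* 1.74-fold higher, *CDKN1A* stood at 0.541 times, *CDKN2C* at 0.72 times and *MYC* at 0.407 times. *CCND1* (log2 fold change 0.22, edgeR adjusted p = 0.00365), *CCNE2* (0.24, adjusted p = 0.00775) and *CDK6* (-0.24, adjusted p = 0.00227) passed with smaller differences. *CDK4* (0.07, SE 0.04, edgeR adjusted p = 0.221) and *CCND3* (0.00, SE 0.05, adjusted p = 0.972) did not.

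The rest of the G1 machinery was read from a list of 16 genes, of which 14 were tested. In controls at 8 cP 3 of the 14 passed, a share near the 19.3% of all genes. Of these 1 rose, *SKP2* (log2 fold change 0.55), whose product directs the degradation of CDKN1A and CDKN1B proteins, and 2 fell, *CDKN1C* and *MNAT1* (-0.20), of the kinase that activates CDKs. The call of *MNAT1* was lost without the first or the second control sample at 0.77 cP and without the first or the third at 8 cP (edgeR adjusted p up to 0.145). In knockdown cells 2 of the 14 were higher than in controls at 8 cP (9.02% of all genes), *SKP2* (0.39) and *CDC25A* (0.38), the phosphatase that activates CDK2, and 4 were lower (11.0% of all genes): *CDKN2D*, *CDKN1B*, *CCND2* and *FBXW7* (-0.21), which marks cyclin E and MYC proteins for degradation. The 4 became 2 without the first or the second control sample at 8 cP, and without the second or the third knockdown sample. The genes lower over all genes in these fits were 1365, 1286, 1427 and 1843, instead of 2002. *SKP2* was at 26.1 ± 2.1, 38.2 ± 2.8 and 49.9 ± 3.4 CPM in the 3 groups (SD, n = 3). *CDK2*, the partner of the E-type cyclins, did not pass in the knockdown comparison (-0.01, SE 0.05, edgeR adjusted p = 0.934).

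Of the 12 relatives of RB1, E2F factors and their DP partners, 5 rose and none fell in controls at 8 cP (median log2 fold change 0.10, with 9.57% of all genes higher): *E2F1* (0.28), *E2F2* (0.32), *E2F4* (0.18), the pocket protein *RBL1* (0.37) and *TFDP1* (0.25). The count was 2 without the first control sample at 0.77 cP, and 3 without the second or without the third control sample at 8 cP. Over all genes 671, 963 and 687 rose in these fits, instead of 1748. In knockdown cells *E2F5* (0.47) and *E2F4* (0.15) were higher and *E2F6* (-0.20) was lower than in controls at 8 cP, 3 of 12 against 20.0% of all genes, and the calls of *E2F4* and *E2F6* were lost in 7 and 3 of the 9 fits that each left out a sample. *E2F1*, at 116 ± 11 CPM in controls at 0.77 cP and 142 ± 5.5 CPM in controls at 8 cP, was at 137 ± 4.5 CPM in knockdown cells (SD, n = 3).

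Transcripts of the G1/S and G2/M stages were read from a pair of lists. Of 20 G1/S transcripts, 17 rose and none fell in controls at 8 cP (median log2 fold change 0.26), where 9.57% of all genes rose. Among the 17 were *MCM6* (0.31), *PCNA* (0.27) and *CDCA7* (0.37), and the count was 14 to 20 with 1 sample left out. In those fits 671 to 2359 of all genes rose, against 1748 with all samples. Of 20 G2/M transcripts, 11 rose and none fell (median 0.18), against the same 9.57% of all genes. Among the 11 were *CCNA2* (0.31), *TOP2A* (0.33) and *KIF11* (0.25). This count of 11 was 3 without the first control sample at 0.77 cP, 5 without the second and 3 without the third control sample at 8 cP. Over all genes 671, 963 and 687 rose in these fits, instead of 1748, and the medians of the list were 0.15, 0.16 and 0.16. In knockdown cells against controls at 8 cP 1 of the 20 G1/S transcripts passed, against 20.0% of all genes. It was *MCM7* (0.17), and its call was lost in 6 of the 9 fits that each left out a sample. None of the 20 G2/M transcripts passed there in edgeR or DESeq2, and 4 had an unadjusted p below 0.05. Whether the effects of viscosity and knockdown on these lists differ was not tested.

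**Figure D4:**
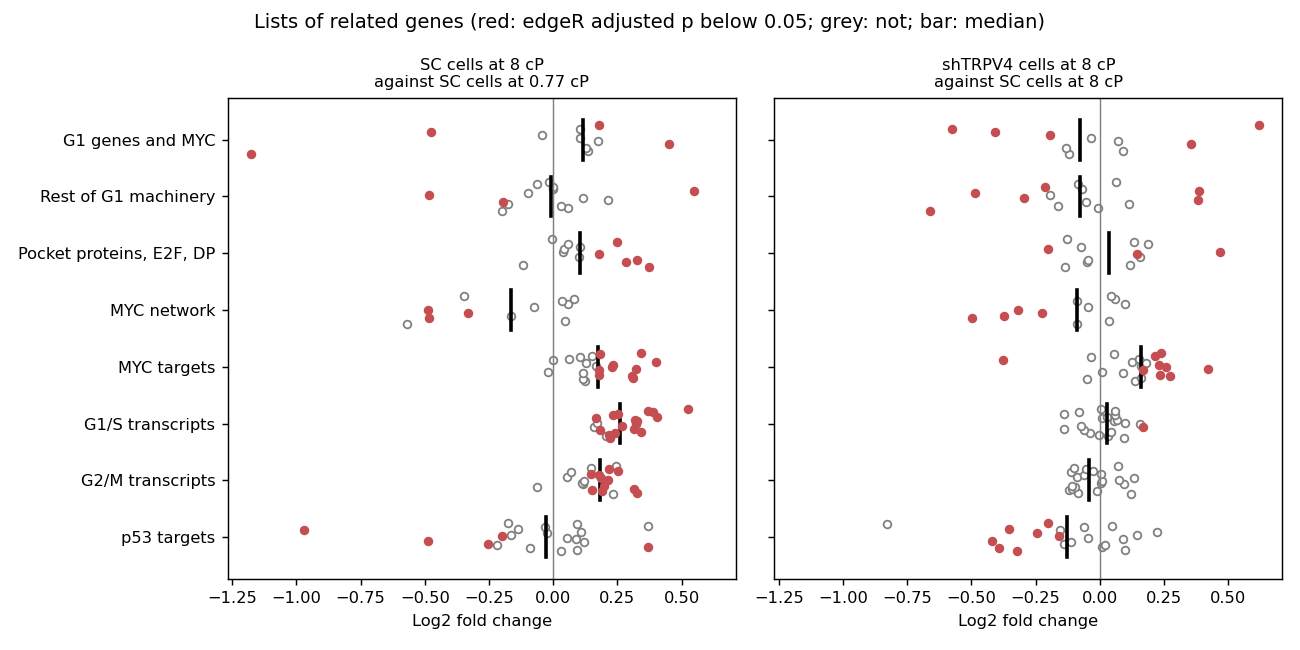
Log2 fold change of every tested gene of 8 lists for viscosity in controls (left) and for the knockdown at 8 cP (right). Red points passed at an edgeR adjusted p below 0.05 and bars are medians. G1/S transcripts lay to the right of 0 with viscosity (17 of 20 passed, against 19.3% of all genes). They lay around 0 with the knockdown (1 of 20, against 20.0%). MYC network genes that passed lay to the left in both.

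Per exon length, *CCND1* led the 10 genes at 149.5 ± 12 RPKM in controls at 0.77 cP (SD, n = 3), followed by *CDKN1A* (72.2 ± 1.7) and *MYC* (71.0 ± 1.3). The ranges of *CDKN1A* and *MYC* overlapped, but *CDKN1A* was the higher in each of these samples (74.06 against 72.41, 71.75 against 70.88 and 70.63 against 69.82 RPKM). *CDK4* (41.7 ± 1.2), *CDKN2C* (36.6 ± 0.94) and *CCND3* (30.3 ± 1.4) came next, and *RB1* (6.62 ± 0.34), *CCNE2* (6.44 ± 0.54) and *CCNE1* (5.69 ± 0.62) stood above *CDK6* (3.70 ± 0.27). The order of *RB1* and *CCNE2* changed between samples, while *CCNE2* was above *CCNE1* in each. In controls at 8 cP *MYC*, at 31.4 ± 0.38 RPKM, was at rank 6, below *CCND3* (33.1 ± 0.29), and *CDKN1A* (51.8 ± 0.55) was at rank 2. In knockdown cells *CDK4* (43.9 ± 1.6 RPKM) was above *CDKN1A* (39.1 ± 1.4), and *RB1* (11.5 ± 0.54) and *CCNE1* (9.99 ± 0.46) were clear of *CCNE2* (7.63 ± 0.12). The range of *MYC* (28.9 ± 2.4) overlapped those of *CCND3* (30.2 ± 1.9) and *CDKN2C* (26.4 ± 0.87). *MYC* was above *CDKN2C* in each knockdown sample, while the order of *MYC* and *CCND3* changed between samples. Lengths are those of all annotated exons merged, so a gene read mainly from a short isoform is understated.

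The genes most like the 3 members with the widest range of group means were sought by the root mean square distance of their centred log2 CPM over the 9 samples, in 9453 genes that averaged 10 CPM or more. Nearest to *MYC* were *IER2* (distance 0.04, at 112, 51.6 and 46.2 CPM in the 3 groups), an early response gene, *HES4* (0.08), a transcriptional repressor, and *SOX9* (0.10), a developmental transcription factor. Nearest to *CDKN1A* were *KLF2* (0.06, at 45.0, 31.5 and 23.3 CPM), a transcription factor, *MCL1* (0.07, at 641, 464 and 363 CPM), which protects against apoptosis, and *ST3GAL1* (0.08), a sialyltransferase. Nearest to *CCNE1* were *SLC5A6* (0.04, at 24.4, 32.5 and 41.0 CPM), a vitamin transporter, *ABCG2* (0.06), a drug efflux pump, and *PIGW* (0.06), an enzyme of glycolipid anchor synthesis.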

How the data were processed

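RNA of MDA-MB-231 cells was sequenced in 9 samples, 3 in each of 3 groups, which come from the sample titles. Per the study's methods and the labels, poly(A) libraries were strand-specific. The authors mapped reads to GRCh38.p13 with HISAT2 2.2.1 and totalled exon reads per Ensembl gene with HTSeq 0.13.5, and SAMtools 1.1.3 and DESeq are named in the submitters' processing notes. The counts were deposited without normalization. GENCODE release 44 gave a symbol for 60463 of the 60664 genes listed, and also positions and exon lengths. Neither molecular identifiers nor the strand setting of counting are given in the sources used here, and the floor of 3 counts covers counting error only.

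Counts were analysed in R 4.3.3 with edgeR 4.0.16 (TMM scaling, filterByExpr, quasi-likelihood test, 1 coefficient per group, all 9 samples) and Benjamini-Hochberg adjustment over 18264 genes at 0.05. Totals of 64571681 to 103518036 counts gave a common biological coefficient of variation of 0.0633. Levels are TMM-scaled CPM, or RPKM from merged exon lengths. The alternatives were DESeq2 1.42.0, upper quartile scaling, no filter, a minimum of 10 counts in every sample, the 6 samples compared alone, the replicate number as a block, glmTreat against 1.2-fold and leaving out each sample in turn. The edgeR step was tested on simulated data.

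The 10 genes and the lists were chosen with earlier results of these data known. Named were the 10 genes, *TRPV4*, genes of the remaining G1 machinery and of the pocket protein and E2F lists that passed, the 3 with the smallest adjusted p of each other list, and the 3 genes nearest to each of the 3 members with the widest range. *CDK2*, which did not pass, and *MXI1* in the knockdown comparison were named after their values were seen.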

Additional observations from a re-analysis of the deposited data

How the results depend on the processing

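All 16 alternatives kept the direction and the side of the threshold for *MYC* and *CDKN1A* with viscosity, for *CDKN1A*, *CDKN2C* and *RB1* with the knockdown, and for *MYC*, *CCNE1*, *CDKN1A*, *CDKN2C* and *RB1* when both differed. With glmTreat against 1.2-fold, 2, 3 and 5 of the 10 genes passed (viscosity, knockdown, both), and 255, 649 and 2529 of all genes instead of 3518, 3649 and 7752. With 1 sample left out the 10 genes gave 3 to 7, 4 to 6 and 8 calls, and all genes gave 1409 to 4349, 2179 to 3836 and 6318 to 7705. For viscosity these were 1409 without the first SC sample at 0.77 cP, 1927 without the second and 1418 without the third SC sample at 8 cP. Without the third SC sample at 0.77 cP, 7 of the 10 genes passed (*CCND1*, *CCND3* and *CCNE2* added) and 4344 of all genes. For the knockdown they were 2361 and 2179 without the first or second SC sample at 8 cP. DESeq2 added *CCND3* and *CCNE2* for viscosity, and no filter added *CCND1* and *CCNE2*. The cause was not tested.

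The sign of 2 small differences changed. *CDK6* with viscosity was between -0.0691 and 0.025 with 1 sample left out, and above 0 without the first SC sample at 0.77 cP. *CCND3* when both differed was 0.00032 with no filter, 0.0034 with only the 6 samples, 0.0077 in DESeq2 and between -0.045 and 0.046 with 1 sample left out. Samples with the same replicate number did not deviate together (correlations -0.0546 to 0.0904, against -0.106 to 0.115 for different numbers, and 0 samples correlated best with their own number in both other groups). The replicate block gave 3475, 3607 and 7731 calls over all genes and 4, 5 and 8 among the 10, and changed no call among the 10. Scaling alternatives moved the median of all genes by less than 0.1. Depth limits *TRPV4*, with 1 to 64 counts a sample, more than the 10 genes, with at least 829.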
